A study of Mus musculus with 6 samples.

Results

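*Ldhb* and *Ldha* encode the subunits of lactate dehydrogenase, and both were examined here in cultured mouse keratinocytes together with 8 other genes that bring glucose into the cell, break it down or move lactate across the membrane. The set was chosen by the dcKO log2 ratio of *Ldhb*. The 10 genes (*Ldha*, *Ldhb*, *Hk1*, *Hk2*, *Pfkp*, *Pgk1*, *Eno1*, *Slc2a1*, *Slc16a1* and *Slc16a3*) were put together after *Ldhb* was seen to be lower in keratinocytes lacking both *Sox4* and *Sox11*, to ask whether that difference is particular to *Ldhb*. The other 9 were picked for their roles in the pathway. All 10 had a probe, and together they had 15 of the 55681 probes and were 10 of the 21368 named genes. The dcKO value of *Ldhb* is therefore a description and carries no test. Where its call is given below, it shows only how the value moves with the processing and the arrays used.

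The cells were primary keratinocytes from newborn pups, first expanded on J2 mouse fibroblasts as feeders and later kept off them, of the strain 129SvEx:C57BL/6 per the labels. Sox4 cKO cells lacked *Sox4*, Sox11 cKO cells lacked *Sox11* and dcKO cells lacked both, and each genotype had 2 arrays, which the labels name as biological replicates. Every array also carried wild-type control RNA in its second channel, which gave 6 wild-type channels. The dyes were swapped, with Cy5 on the knockout RNA of replicate 1 and on the wild-type RNA of replicate 2. Per the study's methods, deletion was driven by *Krt14-Cre*, which acts in basal keratinocytes, and the Cre mice were FVB/N. The share of FVB/N in the cultured cells is not given there. By the same methods, the floxed mice came from a line that also carried Sox12-/-. Neither the labels nor the methods say whether the cultured cells, wild type included, still carried that allele. Whether the wild-type RNA of different arrays came from separate cultures is not stated either, so the p-values below measure the spread between these arrays.

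Lactate dehydrogenase is a tetramer that interconverts pyruvate and lactate. Tetramers rich in LDHA favour the making of lactate, whereas tetramers rich in LDHB favour its return to pyruvate. Upstream of that step, the transporter GLUT1 (*Slc2a1*) admits glucose, hexokinases (*Hk1*, *Hk2*) trap it as a phosphate, the platelet-type phosphofructokinase (*Pfkp*) commits it to glycolysis, and phosphoglycerate kinase (*Pgk1*) and enolase (*Eno1*) act lower in the pathway. Lactate leaves or enters the cell through the monocarboxylate transporters MCT1 (*Slc16a1*) and MCT4 (*Slc16a3*), which reach the membrane with the chaperones basigin and embigin. Cultured keratinocytes are strongly glycolytic, and many genes of the pathway, *Ldha* included, are targets of the hypoxia-inducible factors. *Ldhb* is not a classical member of that target group.

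The promoters of *Ldhb*, *Ldha* and *Slc16a3* are shown because *Ldhb* and *Slc16a3* had the most negative dcKO ratios and *Ldha* encodes the partner subunit of *Ldhb*. Each sequence is the 250 bases before a RefSeq transcription start (GRCm38.p6), read 5′ to 3′ on the strand of the gene. Capitals mark matches, on either strand, to ACGTG, the core of the hypoxia response element, or to a SOX core motif. The SOX forms searched were ACAAAG and ACAATG, and ACAAAG had no match in these sequences.
Ldhb, chr6:142507958-142508207, minus strand: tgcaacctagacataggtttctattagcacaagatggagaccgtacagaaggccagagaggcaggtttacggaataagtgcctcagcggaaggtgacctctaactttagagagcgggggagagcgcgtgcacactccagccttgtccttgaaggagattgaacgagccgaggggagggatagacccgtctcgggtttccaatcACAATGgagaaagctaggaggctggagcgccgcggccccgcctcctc
Ldha, chr7:46845554-46845803, plus strand: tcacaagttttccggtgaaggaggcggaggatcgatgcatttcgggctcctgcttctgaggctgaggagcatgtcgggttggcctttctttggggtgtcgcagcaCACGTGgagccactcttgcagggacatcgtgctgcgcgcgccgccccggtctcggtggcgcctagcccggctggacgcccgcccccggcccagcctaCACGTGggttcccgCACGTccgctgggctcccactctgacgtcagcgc
Slc16a3, chr11:120948817-120949066, plus strand: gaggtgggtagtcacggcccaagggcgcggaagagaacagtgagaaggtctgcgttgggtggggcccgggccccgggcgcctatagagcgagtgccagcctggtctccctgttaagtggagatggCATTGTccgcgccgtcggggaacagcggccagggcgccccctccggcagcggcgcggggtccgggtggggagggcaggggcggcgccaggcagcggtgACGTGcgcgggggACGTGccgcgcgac
The *Ldhb* promoter held 1 match to ACAATG, which began 47 bases before the start, and 0 matches to ACGTG. *Ldha* had 5 matches to ACGTG in this promoter, of which 4 came from 2 copies of the palindrome CACGTG counted once on each strand. A second *Ldha* start had 0 matches to any of these motifs. *Slc16a3* had 2 matches to ACGTG and 1 to ACAATG. Over all 14 promoters of the 10 genes, 6 held ACGTG, 2 held ACAATG and 1 held ACAAAG. Among 32851 RefSeq promoters of the same length, 16.6% held ACGTG, 10.7% held ACAATG and 16.5% held ACAAAG. A match is a description of the letters, and no binding was measured here.

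Levels are log2 intensities per channel, and differences are log2 ratios of knockout over wild type on the same array, so that a negative ratio means a lower signal in the knockout. A probe was called when its limma adjusted p was below 0.05 and its absolute log2 fold change was above 1.5, the thresholds of the study's methods. Of all probes, 35.1% to 42.8% per array had a knockout signal well above background, and 37.3% to 45% a wild-type signal. The lowest knockout share, 35.1%, was that of dcKO replicate 1, whose wild-type channel had 41.1%, and the other knockout channels had at least 40.6%. Its part in the dcKO values was not tested. The labels were checked against the deleted genes. *Sox4* fell by 2.52 on the log2 scale in Sox4 cKO cells (adjusted p = 0.00399) and by 2.52 in dcKO cells (adjusted p = 0.00106). *Sox11* fell by 2.98 in Sox11 cKO cells (adjusted p = 0.0414) and by 3.43 in dcKO cells (adjusted p = 0.00662). All 8 keratinocyte markers, among them *Krt5* and *Krt14*, were well above background in all 12 channels. Of these markers, *Krt15* was called lower in Sox4 cKO cells (-1.58, adjusted p = 0.0245), was higher by p alone in dcKO cells (0.85, adjusted p = 0.0432) and was called higher in dcKO than in Sox4 cKO cells (2.43, adjusted p = 0.00919). Of 9 fibroblast markers, 0 were well above background in all 12 channels and 6 were in no channel, but *Col1a2* was in 11. The summed level of the 9 ran from 8.08 to 8.25 in wild-type channels and from 8.12 to 8.34 in dcKO channels. *Kdr*, *Pecam1*, *Cd3e*, *Csf1r* and *Mitf*, from the endothelial, immune and melanocyte lists, had signal well above background in all 12 channels. *Cdh5*, *Tek*, *Cd207*, *Lyz2*, *Dct* and *Tyrp1* had it in none. The melanocyte markers *Mlana* and *Pmel* had it in 11 channels and *Tyr* in 8. The summed level of the melanocyte list ran from 8.21 to 10.18 in wild-type channels and from 8.31 to 8.73 in dcKO channels. In bulk RNA, fewer cells of a type and less RNA per cell cannot be told apart.

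*Ldhb*, the subunit that favours the use of lactate, was lower in dcKO cells on both arrays, and no other channel came near the dcKO levels. Its probe (A_55_P1954006) was well above background in all 12 channels. In the 6 wild-type channels the lowest level was 9.11, the median 11.18 and the highest 12.06. Sox4 cKO cells had levels of 10.68 and 11.40, and Sox11 cKO cells had 10.63 and 12.22, all of them within or just above the wild-type range. dcKO cells had levels of 6.60 and 5.84. The lowest of the 10 other channels lay 2.51 above the higher dcKO channel. Among all probes, 2.57% had both dcKO levels below all 10 others. Since *Ldhb* was chosen for this contrast, nothing is read from its place in that share.

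The log2 ratios of *Ldhb* in dcKO cells were -4.76 on replicate 1 and -4.14 on replicate 2, with a mean of -4.45 ± 0.44 (SD, n = 2), or 21.9-fold lower. Other processing moved the size of this value, from -3.82 with a larger background offset to -5.30 with the scanner software's processed signals, and the sign was negative under every alternative run. *Ldhb* was not called in dcKO cells under 5 of 14 alternatives, among them the loss of dcKO replicate 1 (-5.08) or of dcKO replicate 2 (-3.82). Ratios in Sox4 cKO cells were -0.32 and -0.66, with a mean of -0.49 (limma adjusted p = 0.919, 95% interval -1.95 to 0.98). In Sox11 cKO cells the arrays went opposite ways, at -1.0 on replicate 1 and 3.11 on replicate 2. Their mean was 1.05 ± 2.91 (SD, n = 2; limma adjusted p = 0.871, 95% interval -0.41 to 2.52). Leaving out Sox11 cKO replicate 1 gave 3.04 (adjusted p = 0.000406), and leaving out replicate 2 gave -0.93 (adjusted p = 0.603). No difference in *Ldhb* was called for the loss of *Sox4* or of *Sox11* alone with all arrays in the fit, and the Sox11 cKO value depended on which array was used.

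The wild-type channel of the Sox11 cKO replicate 2 array had the lowest wild-type level of *Ldhb* (9.11, against 9.98 in the next). It also had the highest wild-type level of 8 of the 10 genes. How often it was the highest among all probes was not computed, so nothing is read from that count. For *Slc16a1* (5.91 against 5.89) and *Slc16a3* (12.40 against 12.23) it was only just the highest. *Ldhb* varied among wild-type channels by 2.95 on the log2 scale, at the 97.6 percentile of probes well above background in every wild-type channel. The part of wild-type variation in the Sox11 cKO ratios was not tested.

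**Figure D1:**
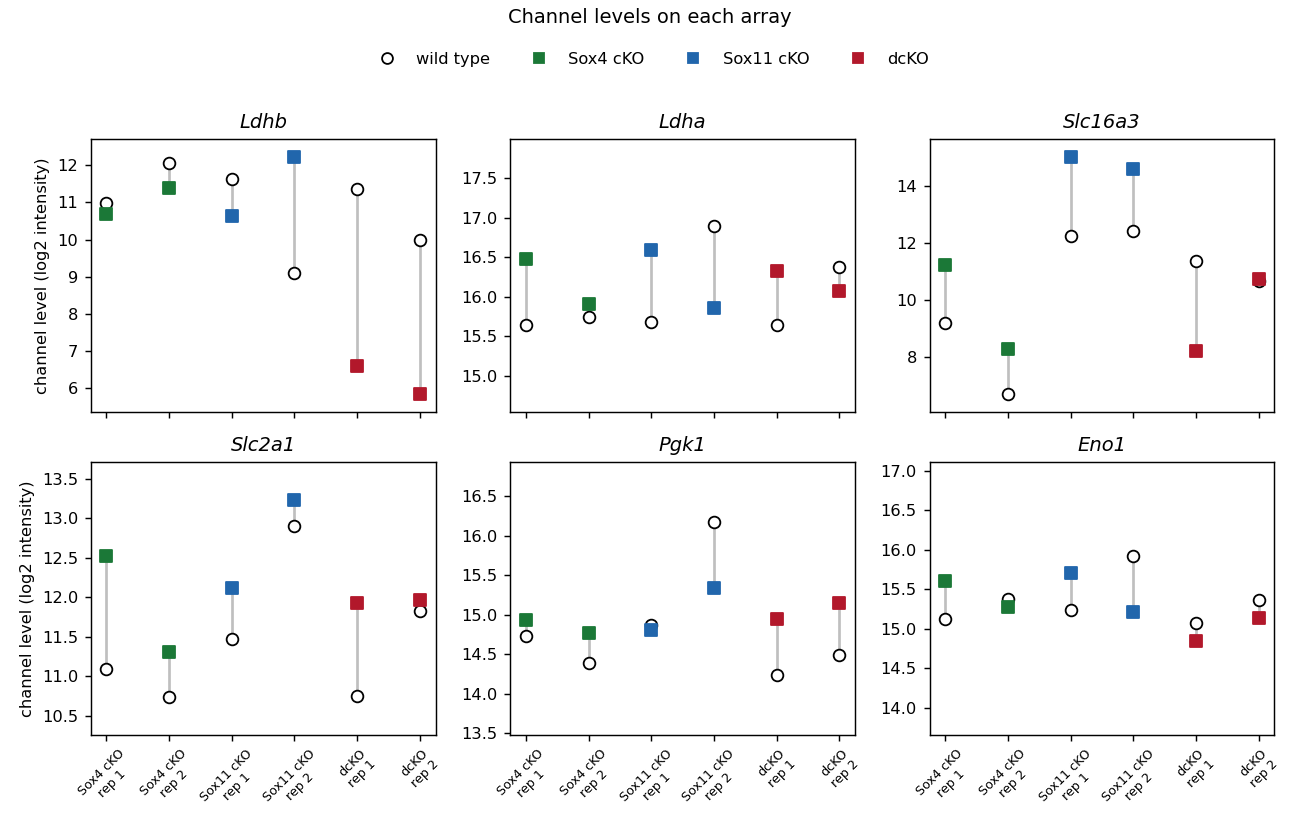
Channel levels (log2 intensity, y axis, with its own scale in each panel) of 6 genes on the 6 arrays (x axis). Open circles are wild-type channels, filled squares are knockout channels of the same array, and grey lines join them; the dcKO squares of *Ldhb*, at 6.60 and 5.84, lie below every other *Ldhb* point, which is not so for *Ldha*.

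*Ldha*, the subunit that favours lactate production, did not share the pattern of *Ldhb*. Its brightest probe (A_55_P2012984) had wild-type levels from 15.64 to 16.90 with a median of 15.71. dcKO levels were 16.33 and 16.08, inside that range. The log2 ratios in dcKO cells were 0.70 and -0.29, with a mean of 0.20 ± 0.70 (SD, n = 2; limma adjusted p = 0.829, 95% interval -0.32 to 0.73). Its other probes gave means of 0.41 (ratios 0.52 and 0.31) and 0.47 (ratios 0.50 and 0.44), so the dcKO arrays differed in sign only for the brightest probe. With median centring in place of loess the brightest probe gave -0.31. Sox4 cKO arrays had ratios of 0.83 and 0.16 (mean 0.50, adjusted p = 0.693), and Sox11 cKO arrays had 0.91 and -1.04 (mean -0.07, adjusted p = 0.994). On the other probes the Sox4 cKO ratios were 0.016 and 1.12, and 0.016 and 1.43. Their Sox11 cKO ratios were -0.096 and 0.13, and -0.018 and 0.21. None of the *Ldha* probes was called in any genotype.

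Set against the brightest *Ldha* probe on the same array, the log2 ratio of *Ldhb* was lower by 5.46 and 3.84 on the dcKO arrays. This difference of ratios was -1.15 and -0.82 on the Sox4 cKO arrays and -1.91 and 4.15 on the Sox11 cKO arrays. These values rest on that probe, whose ratios on single arrays departed from those of the other *Ldha* probes. On dcKO replicate 2, the other 9 genes lay between -0.29 (*Ldha*) and 0.86 (*Hk1*), with a median of 0.08, against -4.14 for *Ldhb*. On dcKO replicate 1 they lay between -3.15 (*Slc16a3*) and 1.17 (*Slc2a1*), with a median of 0.44, against -4.76 for *Ldhb*. Only *Slc16a3*, and only on replicate 1, thus had a large negative ratio beside *Ldhb* in dcKO cells.

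Hexokinases differed from each other in sign. *Hk1*, the housekeeping hexokinase, had dcKO ratios of 0.44 and 0.86 (mean 0.65, SE 0.26, adjusted p = 0.349), and its second, dimmer probe gave 0.78 (adjusted p = 0.0585). In Sox4 cKO cells *Hk1* had ratios of -0.18 and -1.02 (mean -0.60, adjusted p = 0.684). *Hk2*, the inducible hexokinase, had ratios of 0.82 and 0.90 in Sox4 cKO cells (mean 0.86, SE 0.15, adjusted p = 0.149), -0.01 and 0.03 in Sox11 cKO cells, and -0.72 and -0.28 in dcKO cells (mean -0.50, SE 0.15, adjusted p = 0.187). No single genotype passed the test for *Hk2* in the main fit. With median centring in place of loess its dcKO mean was -1.04 (adjusted p = 0.0163). With the authors' table of log2 ratios, fitted without a dye term, it passed by p alone. Its values there were 0.87 in Sox4 cKO (adjusted p = 0.0159) and -0.50 in dcKO cells (adjusted p = 0.0285). The dcKO mean of *Hk1* was 0.10 with median centring. Without dcKO replicate 2 it was -0.07, although the ratio on replicate 1 was 0.44, because the dye effect then came from the other genotypes. For *Hk2*, the difference between dcKO and Sox4 cKO cells did pass by p, at -1.36 (SE 0.22, adjusted p = 0.048, with 0.366% of all probes lower by p). It was smaller than the fold threshold.

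Among the enzymes further down, *Pfkp* had dcKO ratios of 1.04 and 0.45 (mean 0.74, SE 0.25, adjusted p = 0.234), while its second probe, near background, had -0.52 and -0.43. Means of *Pfkp* in Sox4 cKO and Sox11 cKO cells were 0.08 and 0.16. *Pgk1*, which makes ATP in glycolysis, had nearly equal dcKO ratios of 0.71 and 0.66 (mean 0.68, SE 0.19, adjusted p = 0.153). With the authors' table *Pgk1* passed by p alone in dcKO cells (0.69, adjusted p = 0.032). In Sox11 cKO cells its mean was -0.45 (adjusted p = 0.733), and there the wild-type channel of replicate 2 was the highest of 6, at 16.17. The enolase gene *Eno1* had dcKO ratios of -0.22 and -0.24 (mean -0.23, SE 0.21, adjusted p = 0.775, 95% interval -0.71 to 0.26). Sox4 cKO cells had a mean of 0.19 and Sox11 cKO cells of -0.12. For the 5 enzymes upstream of lactate dehydrogenase, then, dcKO means ran from -0.50 to 0.74 and none was called. With median centring the range was from -1.04 to 0.25, with 0.25 for *Pfkp*, 0.15 for *Pgk1* and -0.76 for *Eno1*, so the higher dcKO means of these enzymes depended on the scaling.

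*Slc2a1*, the main glucose transporter of keratinocytes, was higher than wild type on all 6 arrays after loess but was called in no genotype. Its ratios were 1.43 and 0.57 in Sox4 cKO cells (mean 1.00, SE 0.17, adjusted p = 0.133), 0.65 and 0.33 in Sox11 cKO cells (mean 0.49, adjusted p = 0.573) and 1.17 and 0.15 in dcKO cells (mean 0.66, SE 0.17, adjusted p = 0.122). With median centring the dcKO mean was 0.10 (adjusted p = 0.748). With the authors' table *Slc2a1* passed by p alone in Sox4 cKO (1.00, adjusted p = 0.0381) and dcKO cells (0.66, adjusted p = 0.0437). Knockout and wild-type levels overlapped in every genotype. *Slc16a1*, which carries lactate in either direction, was dim, with wild-type levels between 5.70 and 5.91, and its knockout signal did not stand well above background on Sox4 cKO replicate 2 or dcKO replicate 1. Its means were -0.24, -0.31 and -0.27 in Sox4 cKO, Sox11 cKO and dcKO cells (adjusted p = 0.822, 0.849 and 0.629). The dcKO levels of 5.36 and 5.50 lay below all 6 wild-type levels, as did those of 4.4% of all probes.

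*Slc16a3*, the lactate exporter MCT4, had the largest spread of the 10 genes. Wild-type levels ran from 6.71 (on the Sox4 cKO replicate 2 array) to 12.40, with a median of 11.01, and this range of 5.69 was at the 99.8 percentile of probes well above background in every wild-type channel. Sox11 cKO levels, 15.00 and 14.58, were above all 6 wild-type levels, a pattern shown by 2.48% of all probes. The Sox11 cKO ratios were 2.77 and 2.18 (mean 2.48, SE 0.58, adjusted p = 0.289), and the Sox4 cKO ratios were 2.02 and 1.57 (mean 1.79, SE 0.58, adjusted p = 0.535). In dcKO cells the arrays disagreed, at -3.15 and 0.08 (mean -1.53 ± 2.28, SD, n = 2; adjusted p = 0.309). A second probe (A_55_P1959425) gave 1.87, 2.53 and -1.69 as means in Sox4 cKO, Sox11 cKO and dcKO cells. The arrays share 1 estimate of spread, and when either dcKO array was left out *Slc16a3* was called higher in cells lacking *Sox4* (adjusted p = 0.0131) or *Sox11* (adjusted p = 0.0138) with unchanged means. Leaving out dcKO replicate 2 gave -3.41 in dcKO cells (adjusted p = 0.0173), whereas leaving out replicate 1 gave 0.34.

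**Figure D2:**
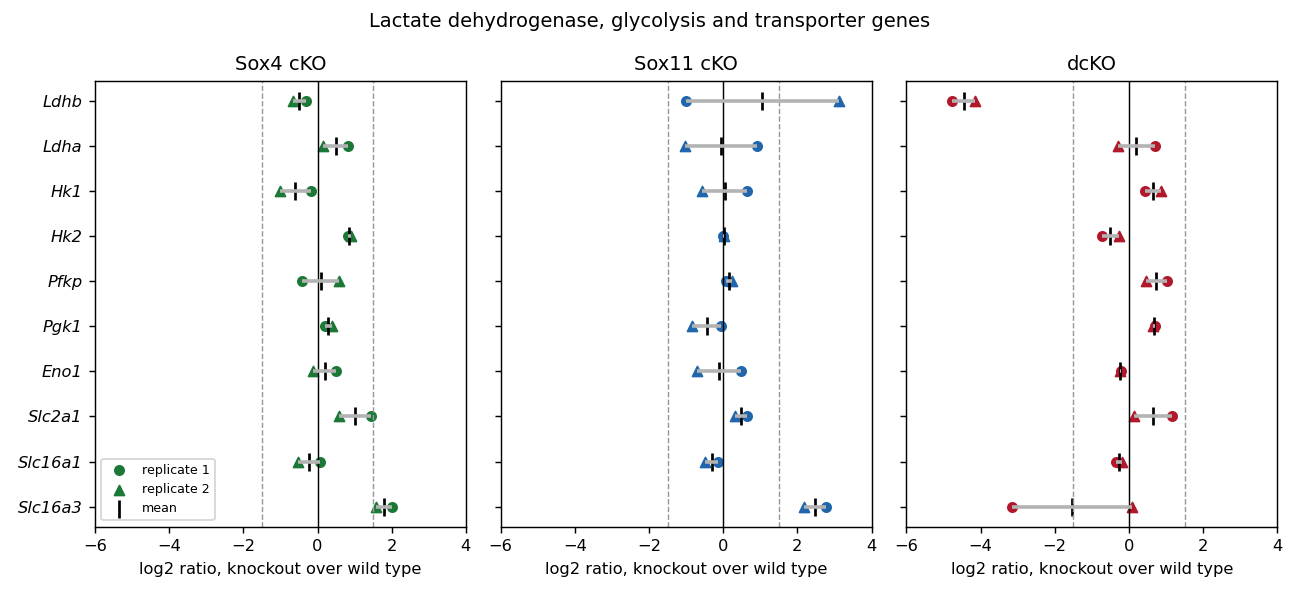
Log2 ratios of knockout over wild type (x axis) for the brightest probe of each of the 10 genes (y axis) in the 3 genotypes. Circles and triangles are replicates 1 and 2, bars their mean, grey lines join them, and dashed lines mark the fold threshold of 1.5; in dcKO cells both points of *Ldhb* lie below -4, while all points of the other genes lie between -0.72 and 1.17 except *Slc16a3* on replicate 1, at -3.15.

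In Sox4 cKO cells 0 of the 10 genes were called, against 0.14% of all probes. The Sox11 cKO count was also 0, against 0.0862% of all probes. In dcKO cells 1 was called, *Ldhb* itself, against 0.756% of all probes, and nothing is read from that count because the contrast chose the gene. Without dcKO replicate 1 that count was 0, and without dcKO replicate 2 the 1 call was *Slc16a3*, not *Ldhb*. Leaving out either dcKO array gave 1 call, *Slc16a3*, in each of the other genotypes, and the Sox11 cKO count was 1, *Ldhb*, without its replicate 1. Medians of the other 9 genes were 0.29, 0.01 and 0.20 in Sox4 cKO, Sox11 cKO and dcKO cells, beside 0.0016, -0.0017 and -0.0042 for all probes. With median centring the dcKO median of the 9 was -0.31. By sign after loess, 4 of the 9 were higher and 3 lower on both dcKO arrays, against 27.3% and 28.2% of all probes. For the 9 genes the largest dcKO mean after *Slc16a3* was 0.74, which is 1.68-fold. In simulated data of the dcKO comparison, changes were placed only on probes well above background. Both thresholds together recovered 1% of probes with a log2 change of 1 and 98% with a change of 2. Adjusted p alone recovered 81% and 99.5%, and it also passed 41 and 50 unchanged probes. The simulated noise was normal, with spreads that limma had already drawn towards a common value. The recovered shares may therefore be too high for measured probes. The other comparisons were not simulated. These shares are averages over probes and need not hold for genes with a large spread. *Slc16a3*, for one, had 2.48 in Sox11 cKO cells (SE 0.58, limma adjusted p = 0.289).

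Tested directly between genotypes, 0 of the 9 genes other than *Ldhb* were called for dcKO against Sox4 cKO cells (0.562% of all probes) or against Sox11 cKO cells (0.449%). The differences of *Slc16a3* were -3.33 (SE 0.82, adjusted p = 0.147) and -4.01 (SE 0.82, adjusted p = 0.109). *Pgk1* differed by 1.13 between dcKO and Sox11 cKO cells (SE 0.27, adjusted p = 0.158). *Ldhb* differed by -3.96 and -5.50, given as a description. Leaving out 1 array changed the number of calls for either comparison. That number was taken over all the genes, *Ldhb* included, so nothing is read from it for the 9 alone. Each of the 3 comparisons with wild type shares neither knockout nor wild-type channels with the others, but the differences between genotypes reuse the dcKO arrays.

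Beyond these genes, 109 others of the pathway had a named probe, in 9 lists by role. No gene of the lists was called in either single-gene knockout, and 5 were in dcKO cells, 4 higher and 1 lower, against 0.312% and 0.444% of all probes. The median of the 109 was 0.05 in dcKO cells, and with processed signals 0 of them were called there. Of the 109, 78 were well above background in both wild-type channels of the dcKO arrays. With either dcKO array left out, 1 was called in place of 5, and without Sox11 cKO replicate 1 the Sox11 cKO count went from 0 to 4.

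Among 13 other monocarboxylate transporters and chaperones, 1 fell in dcKO cells and 0 rose, against 0.444% and 0.312% of all probes. *Emb*, which encodes the transporter chaperone embigin, had ratios of -3.69 and -3.55 (mean -3.62, adjusted p = 0.00106). Its dcKO levels lay below all 6 wild-type levels, as did those of 4.4% of all probes. Its mean was 0.51 for Sox4 cKO and -0.81 for Sox11 cKO (neither past the test), and dcKO differed from both, by -4.13 (adjusted p = 0.00533) and -2.81 (adjusted p = 0.0223). *Bsg*, which encodes the related chaperone basigin, had a mean of 0.50 (adjusted p = 0.212).

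Of 3 other lactate dehydrogenase genes, *Ldhd* rose in dcKO cells, with ratios of 2.21 and 2.20 (mean 2.20, adjusted p = 0.0315) and levels above all 6 wild-type levels, which 4.44% of all probes showed. It encodes a mitochondrial enzyme for D-lactate, which is distinct from the L-lactate enzyme of *Ldha* and *Ldhb*. *Ldhc* and *Ldhal6b* were not well above background in either dcKO channel or its wild-type partner. In Sox4 cKO and Sox11 cKO cells *Ldhd* had means of 0.53 and -0.34, and neither passed the test.

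The 20 other glycolysis enzymes had 0 calls in dcKO cells, against 0.756% of all probes, and a median of 0.06. *Pfkl* had the mean 0.80 (adjusted p = 0.0613), *Tpi1* 0.49, *Aldoa* 0.27, *Pgam1* 0.13 and *Pfkm* 0.09. *Gpi1* had -0.16, *Pkm* -0.23 and *Gapdh* -0.49, with adjusted p from 0.183 to 0.91 for these genes other than *Pfkl*. For *Eno2*, neither dcKO channel was well above background. The 7 genes of the pentose phosphate pathway, the 18 of the citric acid cycle and malate-aspartate shuttle and the 11 regulators and gluconeogenic enzymes also had 0 calls in dcKO cells.

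Of 9 other glucose transporters, *Slc2a5*, a fructose carrier, rose in dcKO cells by 1.53 (ratios 1.77 and 1.28, adjusted p = 0.0102). *Slc2a9*, which carries urate, passed by p alone at 0.89 (adjusted p = 0.0364), as did 0.882% of all probes in that direction. *Slc2a3* was above background in 1 dcKO channel and in neither wild-type partner. Among 13 genes for the entry of pyruvate into mitochondria, only *Pdk1* passed by p alone in dcKO cells. It encodes a kinase that restrains pyruvate dehydrogenase, and its mean was 1.24 (ratios 1.51 and 0.98, adjusted p = 0.0122). The dcKO levels of *Pdk1* lay above all 6 wild-type levels, as did those of 4.44% of all probes. The pyruvate carrier genes *Mpc1* and *Mpc2* had means of 0.46 and 0.34 and *Pdha1* of 0.02, none past the test.

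In the list of 15 hypoxia-response genes, 2 rose in dcKO cells and 0 fell by both thresholds, against 0.312% and 0.444% of all probes. *Bnip3*, a mitophagy receptor, had ratios of 2.03 and 2.61 (mean 2.32, adjusted p = 0.0277), and *Ankrd37* had 1.44 and 1.61 (mean 1.52, adjusted p = 0.00662). *Adm*, which encodes adrenomedullin, was lower by p alone at -1.14 (adjusted p = 0.0291), as were 1.17% of all probes. *Pdk1* and *Bnip3* are, like *Ldha*, known targets of hypoxia-inducible factors. *Ldha* did not pass the test in any genotype.

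**Figure D3:**
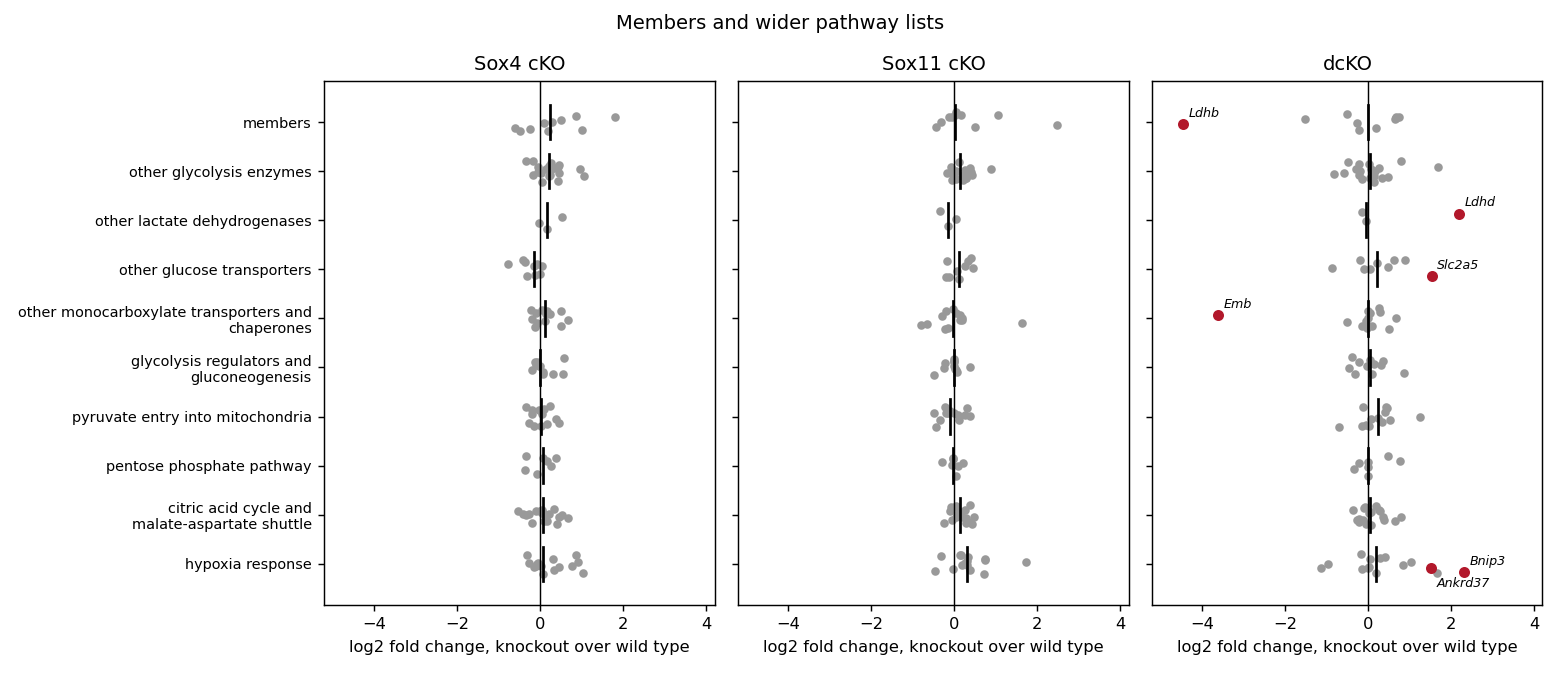
Log2 fold changes of knockout over wild type (x axis) of the 10 genes (members) and of the 9 pathway lists (y axis, points spread vertically for display) in the 3 genotypes. Each point is 1 gene, coloured and named points were called, and black bars are list medians; coloured points appear only in dcKO cells, where *Ldhb* is the lowest, at -4.45, and *Bnip3* the highest, at 2.32.

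Genes beside *Ldhb* on chromosome 6 did not share its dcKO value. Of the 5 nearest named genes with a probe on each side, 0 were called in dcKO cells, against 0.756% of all probes. On one side, *Pyroxd1*, *Recql*, *Golt1b*, *Spx* and *Gys2* had means of -0.56, 0.16, 0.01, -0.72 and -0.28. *Spx* had no dcKO channel well above background and was at least 1.31-fold lower there (adjusted p = 0.105). On the other side, *Kcnj8*, *Abcc9*, *5330439B14Rik*, *Cmas* and *Sult6b2* had means of -0.04, -0.13, -0.15, -0.36 and 0.09. *Gys2*, *Kcnj8*, *Abcc9*, *5330439B14Rik* and *Sult6b2* were well above background in neither dcKO cells nor their wild-type partners, so that *Pyroxd1*, *Recql*, *Golt1b* and *Cmas* were the measured neighbours.

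Genes like *Ldhb* were sought only outside all gene lists used here, so no listed gene of these pathways could appear. Likeness was the distance between dye-adjusted log2 ratios over the 6 arrays. The pool was 10585 genes outside the lists whose probe was well above background in all wild-type channels. *Serpina3f* (distance 2.36), *Efemp1* (2.45), *Arhgap8* (2.54), *Serpina3i* (2.68) and *Wfdc2* (2.83) were nearest. Their dcKO means were -4.24, -3.06, -3.26, -4.01 and -3.35, and their Pearson correlations with *Ldhb* over the 6 arrays ran from 0.91 to 0.99. *Serpina3f* and *Serpina3i* belong to a family of close copies, and their probes may share signal. These correlations rest on the same dcKO arrays that chose *Ldhb* and are descriptions.

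**Figure D4:**
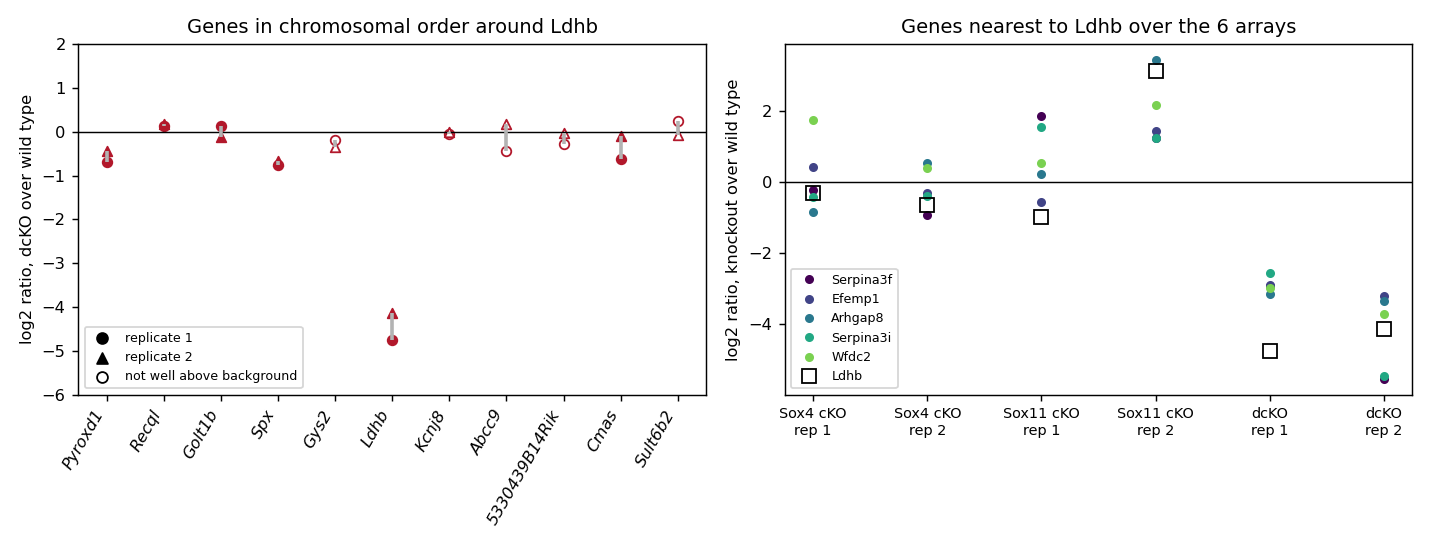
Left, log2 ratios of dcKO over wild type (y axis) of *Ldhb* and the 5 genes on each side in chromosomal order (x axis), with circles and triangles for replicates 1 and 2 and open symbols for genes well above background in neither group; *Ldhb* alone lies below -4. Right, log2 ratios on each array (x axis) of *Ldhb* (open squares) and of 5 genes (coloured points). These 5 are the nearest to *Ldhb* by dye-adjusted distance among genes outside the gene lists used here. All points lie below -2 on the dcKO arrays.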

How the data were processed

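The deposited scanner files hold median spot and background intensity values per channel, which the authors read out in Agilent Feature Extraction 11.0.1.1. Per the file headers, they also hold processed intensity values and a log10 ratio of these. The authors' table of log2 ratios (normexp with an offset of 16, loess, dye effect removed) correlated at 0.89 to 0.952 with the ratios computed here and was an alternative only, as were the processed values. The log10 ratio was not used further. Here, R 4.3.3 and limma 3.58.1 were used: normexp (offset 16), loess within arrays, control and outlier spots left out, and lmFit and eBayes over all 6 arrays with genotype effects and a dye term (2 residual and 5.37 prior degrees of freedom). P-values were Benjamini-Hochberg adjusted over 55681 probes. Channel levels are after Aquantile scaling between arrays. The brightest probe stands for a gene, and symbols come from a GRCm38.p6 RefSeq table (95.1% of 29786 accessions matched; the array was designed on mm9).

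The dye term equals a block on the replicate number. Deviations from genotype means of arrays with the same number correlated at 0.125 to 0.316, but those arrays also share their dyes. All arrays came from 1 slide and 1 scan. Named were the 10 genes, preset enzymes and carriers, pathway genes with an adjusted p below 0.05, 5 neighbours on each side, the 5 genes most like *Ldhb*, *Sox4*, *Sox11* and markers with signal. The pathway lists leave out 1 gene, which is not reported here. The genes and lists were chosen with earlier results of these data known. The fit was tested on simulated data, and 14 alternatives were run. The number of arrays limits the precision.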

Additional observations from a re-analysis of the deposited data

Results flagged for a closer look

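The wild-type level of *Pgk1* on the Sox11 cKO replicate 2 array, 16.17, and that of *Eno1* on the same array, 15.92, lay far above the other 5 wild-type channels of each gene. Chance marks about 5% of groups in this way, and 10 genes were examined.

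Several genes differed between genotypes by the contrast itself. Between dcKO and Sox4 cKO cells, *Hk2* differed by -1.36 (adjusted p = 0.048), *Emb* by -4.13 (adjusted p = 0.00533) and *Ankrd37* by 1.78 (adjusted p = 0.0235). Between dcKO and Sox11 cKO cells, *Emb* differed by -2.81 (adjusted p = 0.0223), *Slc2a5* by 1.72 (adjusted p = 0.0483) and *Adm* by -1.87 (adjusted p = 0.0386). In neither comparison did *Ldha* pass the test.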

How the results depend on the processing

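The 30 fold changes of the 10 genes were recomputed under 14 alternatives, 6 of which left out 1 array. Of these, 29 had a test and 0 were called with all arrays in the fit. Among their 406 values under the alternatives, direction and side of the thresholds were kept in 385, 15 changed sign and 6 came past the thresholds. The value left, *Ldhb* in dcKO cells, kept its sign but was not called under 5 alternatives: an offset of 50, processed signals, the mean over all probes of a gene, and the loss of either dcKO array. With 2 arrays per genotype, a value that rests on 1 array has no replicate check, and the lone array left in a genotype is assumed to vary like the others. The dye effect of that lone array is estimated from the other genotypes, so a changed sign need not mean that the 2 arrays disagree. Dim probes such as that of *Slc16a1* limit how large a fold change can be measured.

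In dcKO cells *Ldhb* gave -3.82 with an offset of 50, -5.30 with processed signals and -4.93 with median centring, and from -5.08 to -3.82 with an array left out. The count of the 10 genes called in dcKO cells became 0 with an offset of 50, 0 with processed signals and 0 with the mean over all probes of a gene. For dcKO against Sox4 cKO it became 3 with median centring and 2 with the authors' table, and for dcKO against Sox11 cKO 2 and 2. The cause of these shifts was not tested, and the counts are over all 10 genes, *Ldhb* included. With an array left out, the counts ran from 0 to 1 in Sox4 cKO, Sox11 cKO and dcKO cells and from 0 to 2 in each of the comparisons between genotypes. Wider pathway genes called in dcKO cells became 1 with an offset of 50, 0 with processed signals, 3 with the mean over all probes of a gene and 3 without the replicate block (the dye term), and ran from 1 to 7 with an array left out. In Sox11 cKO cells that count ran from 0 to 4. The block changed no other call in these results.

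*Ldha* turned to 0.016 in Sox11 cKO cells with the mean over all probes and to -0.31 in dcKO cells with median centring. With an array left out, *Ldhb* ran from -1.84 to 0.87 in Sox4 cKO and from -0.93 to 3.04 in Sox11 cKO cells. In Sox4 cKO cells *Pfkp* ran from -0.51 to 0.67, *Pgk1* from -0.0093 to 0.59 and *Slc16a1* from -0.49 to 0.0051. In Sox11 cKO cells *Ldha* ran from -0.62 to 0.49, *Hk1* from -0.46 to 0.54, *Hk2* from -0.10 to 0.12 and *Eno1* from -0.56 to 0.31. In dcKO cells *Hk1* ran from -0.072 to 1.37, *Eno1* from -0.66 to 0.21, *Slc16a1* from -0.59 to 0.045 and *Slc16a3* from -3.41 to 0.34. Because of the dye effect, the ends of these ranges are not the ratios of the arrays. On the arrays themselves, *Eno1* had dcKO ratios of -0.22 and -0.24 and *Slc16a1* of -0.35 and -0.19. *Ldhb* had Sox4 cKO ratios of -0.32 and -0.66.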
